A study of Mus musculus with 8 samples.

Results

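The genes described here encode the actin cytoskeleton of T cells and the serum response factor (SRF) program that supplies it. They are 52 genes chosen by name and role, with no rule on measured values, although earlier results of these data were known. The arrays measure 22180 genes with a probe set (a group of probes summarised as 1 value) naming a single gene. Each of the 52 members was read from its brightest such probe set, and 47 of the 52 could be measured. Expression was profiled in thymocytes of the CD4 single-positive stage (CD4SP), T cells that have passed selection in the thymus, sorted from mice of the C57BL/6 background. One group was labelled wild-type (WT, 4 arrays) and the other Pggt1b_KO (KO, 4 arrays). No age, agent or time is given for either group, and the sources used here do not name the Cre driver, the deleted part of the gene or the number of animals. Since no label states that each sample is another mouse, the p-values rest on the spread among these samples alone, part of which may be technical.

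Pggt1b encodes the catalytic subunit of protein geranylgeranyl transferase type I, which attaches a lipid to the C-terminus of signalling proteins such as Rac and Cdc42. As background, these GTPases switch on the actin machinery: Rac and Cdc42 act through the WAVE and WASP proteins on the Arp2/3 complex, which starts branched filaments, while formins build straight filaments and myosin pulls on them. Filament assembly uses up free actin, which releases the cofactors of SRF, and SRF then drives transcription of actin and of many actin-binding genes. T cells depend on this machinery to crawl, to polarise and to leave the thymus.

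In the targeted gene, Pggt1b, the WT arrays read 8.35, 8.38, 8.29 and 8.36 and the KO arrays 7.89, 7.57, 7.69 and 7.86 on the log2 scale. No KO array reached the lowest WT array. The 10 CD4SP genes fixed as a check of the label, among them Cd4 and Cd3e, were all tested and none was called, and their summed level ran from 15.07 to 15.11 log2 in WT and from 15.03 to 15.07 in KO. Markers of other cells moved in part. Of 4 tested CD8 lineage genes Nkg7 and Cd8a were lower in KO, and the summed level of that list was 11.34 to 11.67 in WT and 10.97 to 11.31 in KO. Ighm was higher among 2 tested B cell genes (summed level 11.00 to 11.17 in WT, 11.64 to 11.78 in KO), while Ms4a1, Pax5 and Cd79a lay below the intensity filter. Fcgr3 was higher among 4 tested myeloid genes (9.84 to 9.93 in WT, 9.77 to 9.86 in KO), with Cd14, Adgre1, Itgax and Csf1r below the filter, and Pecam1 among 2 endothelial genes (10.73 to 10.95 in WT, 10.99 to 11.08 in KO), with Kdr, Tek and Vwf below it. In addition 0 of 4 tested fibroblast genes were called, 0 of 1 platelet gene and 0 of 1 epithelial gene, while 0 erythroid genes could be tested. The 1 platelet gene stood at 0.18 with all KO arrays above all WT arrays (limma adjusted p = 0.0957). With so few tested genes these lists say little about such cells. Of the heat-shock genes 0 of 6 were called, although Hspa1a ranged from 4.27 in KO replicate 3 to 9.94 in KO replicate 1. The part of these markers in the results below was not tested, and in bulk RNA fewer cells of a type cannot be told apart from less RNA per cell.

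Transcripts of the chosen members differed little between KO and WT, which does not extend to the list of other actin genes given below. Of the 47 measured members, all of which passed the intensity filter, 2 fell and 1 rose in KO. Gsn, which encodes the filament-severing protein gelsolin, was 1.39-fold lower, Srf was 1.16-fold lower, and Wasf2, which encodes the WAVE2 protein, was 1.13-fold higher. The other 44 were not called, and no member differed by as much as 1.5-fold. A gene was called at a Benjamini-Hochberg adjusted p under 0.05 in limma, a linear model fitted to every tested gene at once.

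These counts are read against all 11585 tested genes. Among those 13.0% were called, 4.45% higher and 8.53% lower in KO, whereas 6.38% of the members were called. The genotypes did not overlap at all for 20.3% of tested genes, 6.79% with KO above and 13.5% with KO below, and for 7 of the 47 members, 1 above and 6 below. The median log2 difference was -0.042 over the members and -0.030 over all tested genes. Estimates lay below 0 for 37 of the 47 members, or 78.7%, against 59.1% of all tested genes and 57.6% of the 920 tested genes that were at least as bright as the median member. The members' differences ran from -0.48 to 0.18. At or below -0.1 stood 29.8% of the members and 30.8% of all tested genes, so the distributions parted on the upper side, as the plot of cumulative changes shows.

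**Figure D1:**
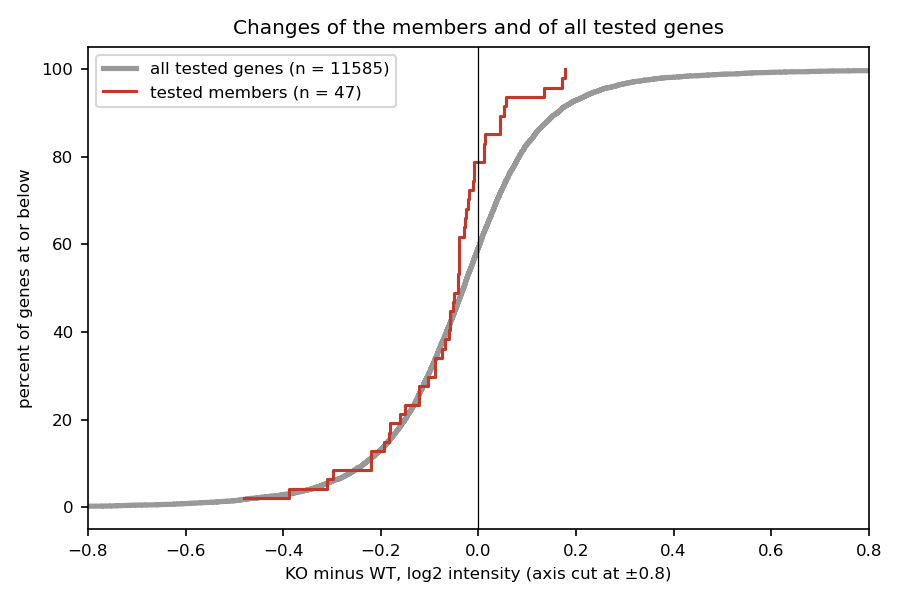
Cumulative percent of genes at or below each KO minus WT log2 difference, for the 47 tested members (red) and all 11585 tested genes (grey). At -0.1 the curves read 29.8% and 30.8%, at 0 they read 78.7% and 59.1%, and the red curve ends at 0.18.

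Because a p that misses the threshold does not show that levels were alike, the 95% intervals matter. The median half-width of a member's interval was 0.13 log2. For 39 of 47 members the whole interval lay within a 1.25-fold change in either direction, and for 44 it lay within 1.5-fold. The 8 whose intervals went past 1.25-fold were Cfl1, Gsn, Vasp, Myl6, Myl12a, Srf, Tagln2 and Fhl2, all on the lower side. Gsn, Myl6 and Tagln2 were the 3 whose intervals went past 1.5-fold.

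**Figure D2:**
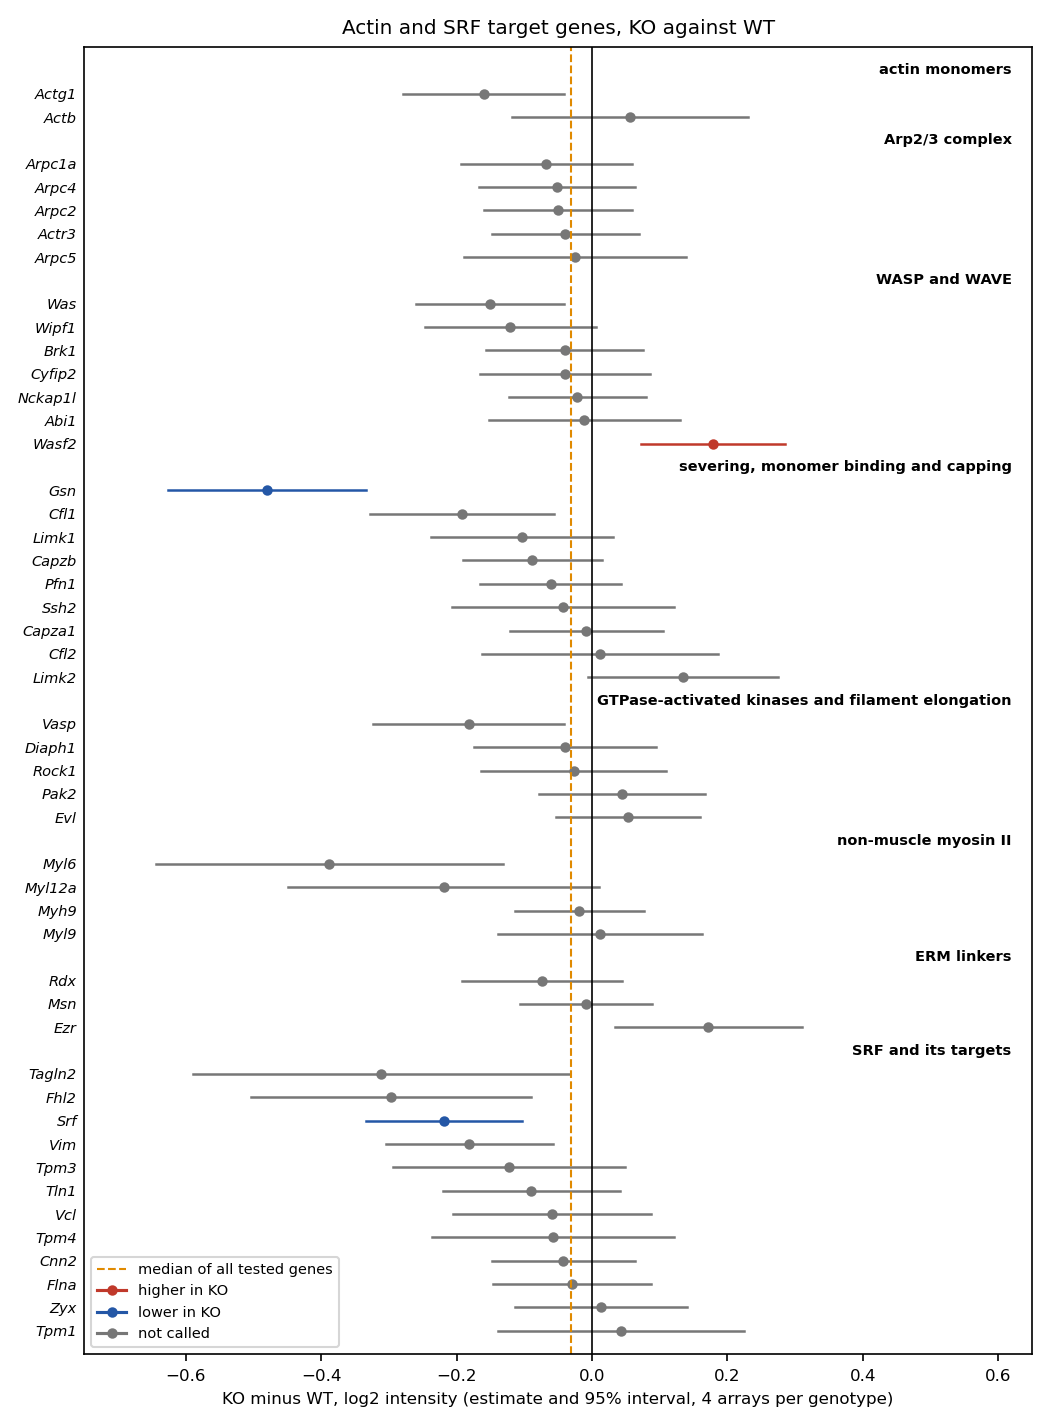
KO minus WT log2 difference (point) and 95% interval (line) of each tested member, by role. Blue marks genes called lower in KO, red higher, grey not called, and the dashed line is the median of all tested genes. Gsn at -0.48 lies farthest from 0.

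The number of calls depended on scaling and on single arrays. With each array centred on its median, 0 members were higher and 9 of 47 lower, where 3.31% and 11.4% of all tested genes were. The added falls were Actg1, Was, Cfl1, Vasp, Myl6, Vim and Fhl2. In that setting 14.7% of all tested genes were called, so the main setting's lower share of calls among the members did not hold. That centring also moved the median of all genes to -0.064 and the members' median to -0.0765, and the share of higher calls among all called genes from 34.3% to 22.5%. No member was higher without WT replicate 2 or 3 or any single KO replicate. Of all tested genes 3.41% and 2.88% were higher without WT replicates 2 and 3, and 2.61% to 3.7% without a single KO replicate. The count of falls was 1 when WT replicate 2, WT replicate 3, KO replicate 1 or KO replicate 3 was dropped, and 4 without WT replicate 4 or KO replicate 4. With those arrays dropped, in that order, 4.26%, 5.17%, 4.41%, 5.28%, 6.72% and 6.24% of all tested genes fell, against 8.53% with all arrays.

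The actin monomers themselves did not pass the test. Actb, which encodes beta-actin, read 11.44, 11.36, 11.39 and 11.41 in WT and 11.55, 11.23, 11.61 and 11.44 in KO. The KO arrays were spread on both sides of the WT arrays (SD 0.17 against 0.036, n = 4 each). The difference was 0.06 log2 with a 95% interval from -0.12 to 0.23. Actg1, which encodes gamma-actin, read 11.19, 11.19, 11.28 and 11.28 in WT and 11.00, 11.14, 11.04 and 11.13 in KO. Every KO array was below every WT array, but the difference of -0.16 ± 0.053 SE missed the threshold (limma adjusted p = 0.0793). These values are from the brightest probe set of Actg1, and its other probe sets differed by -0.16 to 0.18. The mRNAs of both genes are alike in their coding parts, and how far their probes share signal was not tested.

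Subunits of the Arp2/3 complex, which nucleates branched filaments, stood close to WT. None of the 5 measured subunits was called, all 5 estimates lay below 0, and they ran only from -0.07 to -0.03. Arpc1a read 9.37, 9.49, 9.33 and 9.46 in WT and 9.42, 9.28, 9.38 and 9.31 in KO, with an interval of the difference from -0.19 to 0.06. Arpc2 read 12.07, 12.10, 12.18 and 12.19 in WT and 12.05, 12.13, 12.08 and 12.07 in KO, with an interval from -0.16 to 0.06. The genotypes overlapped in both genes. Arpc4, Actr3 and Arpc5 differed by -0.05, -0.04 and -0.03. The median of the 5 was -0.051 log2, against -0.030 over all genes.

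Among the activators of Arp2/3, 1 of 7 members was called. Wasf2, the WAVE2 subunit that relays Rac signals, read 10.26, 10.20, 10.19 and 10.15 in WT and 10.33, 10.36, 10.38 and 10.44 in KO. All KO arrays were above all WT arrays, and it rose by 0.18 ± 0.048 SE log2 (limma adjusted p = 0.0373). This call held in 1 of the 8 fits that each left out 1 array. It was lost when WT replicate 2, 3 or 4 or any KO replicate was dropped, with adjusted p reaching 0.0879, and with no intensity filter (0.0953). Was, which encodes the Wiskott-Aldrich syndrome protein that Cdc42 activates in blood cells, read 10.50, 10.45, 10.54 and 10.41 in WT and 10.33, 10.27, 10.33 and 10.37 in KO. These groups did not overlap either, yet the difference of -0.15 ± 0.049 SE was not called (limma adjusted p = 0.0715).

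The other members of this group were not called. Wipf1, whose protein stabilises WASP, differed by -0.12 (interval -0.25 to 0.01). The WAVE complex partners Cyfip2, Brk1, Nckap1l and Abi1 differed by -0.04, -0.04, -0.02 and -0.01. The WAVE proteins Abi2 and Nckap1, from a list of other actin genes and named here after their values were seen, stood at -0.27 (called lower, limma adjusted p = 0.0338) and -0.14 (not called).

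Genes that sever, sequester or cap filaments held the clearest change. Gsn encodes gelsolin, a calcium-activated protein that cuts filaments and caps their ends. It read 8.84, 9.14, 8.97 and 9.00 in WT and 8.47, 8.53, 8.48 and 8.56 in KO. The lowest WT array was above the highest KO array. It fell from 8.99 ± 0.12 to 8.51 ± 0.040 (SD, n = 4 each), a log2 difference of -0.48 ± 0.065 SE (limma adjusted p = 0.00215). The call held under all 18 other settings tried, with adjusted p up to 0.0443, and without any single array the difference ran from -0.53 to -0.43.

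Cofilin, the other main severing factor, showed a smaller difference. Cfl1, the cofilin gene of blood cells, read 10.71, 10.57, 10.70 and 10.50 in WT and 10.42, 10.37, 10.44 and 10.49 in KO. The KO arrays were all lower, by a margin of hundredths between KO replicate 4 and WT replicate 4. The difference was -0.19 ± 0.061 SE (limma adjusted p = 0.0669), and of the 8 fits that left out 1 array only that without WT replicate 4 called it (-0.23, adjusted p = 0.0399), while the others gave adjusted p up to 0.155. Cfl2, known as the muscle form, differed by 0.01 with an interval from -0.16 to 0.19. Of the LIM kinases, which inactivate cofilin by phosphorylation, Limk1 differed by -0.10 and Limk2 by 0.13 (intervals -0.24 to 0.03 and -0.01 to 0.27). Ssh2, a phosphatase that reactivates cofilin, differed by -0.04. Profilin (Pfn1), which feeds actin to growing ends, differed by -0.06, and the capping subunits Capzb and Capza1 by -0.09 and -0.01. None of these 7 was called.

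**Figure D3:**
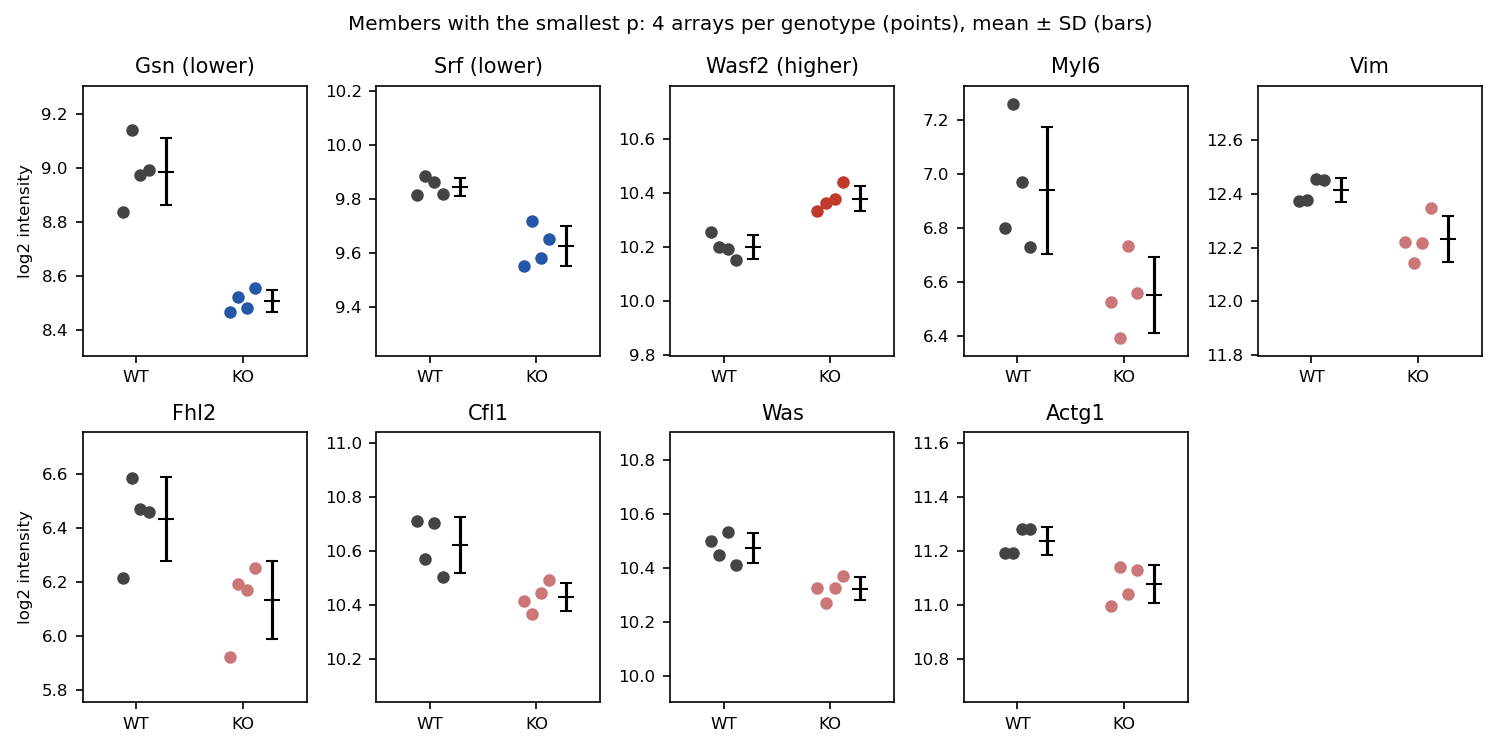
Log2 intensity in each array (points) with mean ± SD (bars) for the 9 members with the smallest p, in that order. Each panel spans 1 log2 unit and panels differ in their start. Gsn, Srf, Vim, Cfl1, Was and Actg1 do not overlap between genotypes on the lower side and Wasf2 on the higher, whereas Myl6 and Fhl2 overlap.

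Kinases activated by GTPases, and factors that extend filaments, were not called in any of the 5 measured cases. Vasp, whose protein elongates filaments at the leading edge, read 9.75, 9.66, 9.61 and 9.70 in WT and 9.43, 9.48, 9.43 and 9.66 in KO. KO replicates 1, 2 and 3 were below all WT arrays, and KO replicate 4 lay among them. The difference was -0.18 ± 0.063 SE (limma adjusted p = 0.0899), or -0.24 without KO replicate 4, where it was called (adjusted p = 0.0313), while the other fits that left out 1 array gave adjusted p up to 0.198. Evl, of the same protein family, read 11.18, 11.22, 11.18 and 11.24 in WT and 11.31, 11.21, 11.20 and 11.30 in KO, a difference of 0.05 with an interval from -0.05 to 0.16. Pak2, an effector kinase of Rac and Cdc42, differed by 0.04, Rock1, a kinase that raises myosin activity, by -0.03 and the formin Diaph1 by -0.04.

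None of the 4 chains of non-muscle myosin II, the motor of contraction, was called. Its heavy chain Myh9 differed by -0.02 with an interval from -0.11 to 0.08. The essential light chain Myl6 read 6.80, 7.26, 6.97 and 6.73 in WT and 6.53, 6.39, 6.73 and 6.56 in KO. KO replicate 3 and WT replicate 4 had almost the same value, and the difference of -0.39 ± 0.11 SE stood just outside the threshold (limma adjusted p = 0.0535). Among other settings, Myl6 was called without WT replicate 4 (adjusted p = 0.0369), after a second quantile normalization (adjusted p = 0.0312) and with each array centred (adjusted p = 0.0401). A mean log2 of at least 6, array weights, and an intensity trend with robust prior also called it (adjusted p = 0.0494, 0.0435 and 0.0401). It was not called in the other 7 fits that left out 1 array, where the adjusted p went up to 0.124. Without WT replicate 2 the difference shrank to -0.28. Nor was Myl6 called with no intensity filter (0.0893), with sample number (0.0861) or with heat-shock level (0.130) as a covariate. Averaged probe sets (adjusted p = 0.0527) and leaving out KO replicates 1 and 2 together (adjusted p = 0.303) gave no call either. The regulatory light chain Myl12a read 8.79, 8.74, 8.65 and 8.64 in WT and 8.57, 8.16, 8.54 and 8.69 in KO. KO replicate 2 was the low one, and the difference was -0.22 with an interval from -0.45 to 0.01. Myl9, another regulatory light chain, differed by 0.01.

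The ERM proteins tie filaments to the plasma membrane. Ezr (ezrin) read 11.16, 11.30, 11.19 and 11.41 in WT and 11.42, 11.40, 11.46 and 11.47 in KO. WT replicate 4 reached into the KO range, and the difference of 0.17 ± 0.062 SE was not called (limma adjusted p = 0.0992), while without WT replicate 4 it was 0.22 and called (adjusted p = 0.0358). The other 7 fits that left out 1 array did not call it, with adjusted p up to 0.209 and a difference as low as 0.14. Rdx (radixin) read 9.91, 9.78, 9.80 and 9.81 in WT and 9.67, 9.73, 9.78 and 9.82 in KO, a difference of -0.07 with an interval from -0.19 to 0.05. Msn (moesin) differed by -0.01, with an interval from -0.11 to 0.09.

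SRF and its targets tended below 0, as did the members as a whole, and of the 12 only Srf itself was called. Srf encodes the transcription factor of this program. It read 9.82, 9.88, 9.86 and 9.82 in WT and 9.55, 9.72, 9.58 and 9.65 in KO. No KO array reached the WT range, and it fell by 0.22 log2 (SE 0.051, limma adjusted p = 0.0241). Dropping WT replicate 2, WT replicate 3, KO replicate 1 or KO replicate 3 ended the call, with adjusted p reaching 0.0705, and so did testing with no intensity filter (adjusted p = 0.0581). Vim, which encodes the intermediate filament vimentin, read 12.37, 12.38, 12.45 and 12.45 in WT and 12.22, 12.14, 12.22 and 12.35 in KO. It too had no overlap, with a difference of -0.18 ± 0.055 SE (limma adjusted p = 0.0602), and among the fits that left out 1 array it was called only without KO replicate 4 (adjusted p = 0.0365), the others giving up to 0.134.

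Other targets of SRF had larger estimates with wider errors, or estimates near 0. Fhl2, a LIM-domain cofactor, differed by -0.30 (interval -0.50 to -0.09, limma adjusted p = 0.0641) and among the fits that left out 1 array was called only without WT replicate 1 (adjusted p = 0.0244), the others giving up to 0.150. Tagln2, an actin-bundling transgelin, differed by -0.31 (interval -0.59 to -0.03, adjusted p = 0.131), with KO replicate 2 lowest at 8.31. The tropomyosins Tpm3, Tpm4 and Tpm1, which coat filaments, differed by -0.12, -0.06 and 0.04. The adhesion proteins talin (Tln1), vinculin (Vcl) and zyxin (Zyx) differed by -0.09, -0.06 and 0.01, filamin A (Flna) by -0.03 and calponin 2 (Cnn2) by -0.04. The median of the 12 was -0.074, against -0.030 over all tested genes. Of the 12 estimates 10 lay below 0, or 83.3%, where 78.7% of all members and 59.1% of all tested genes did.

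**Figure D4:**
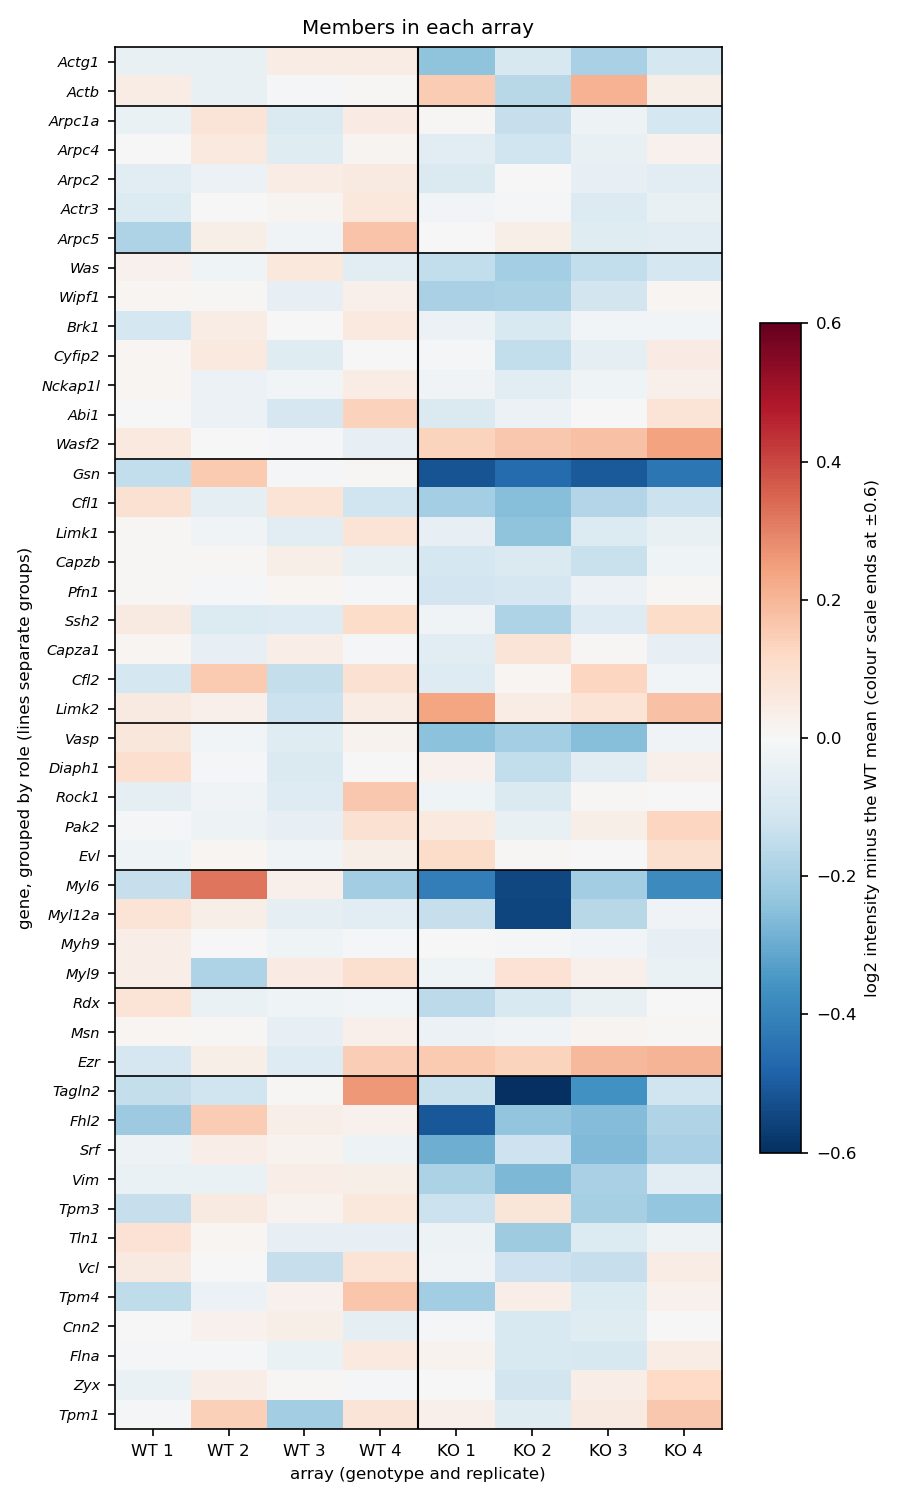
Log2 intensity of each tested member minus its WT mean, in all 8 arrays, grouped by role and ordered by difference within a group. Gsn is blue in all 4 KO arrays and Wasf2 red in all 4, while Tagln2 and Myl12a are darkest in KO replicate 2.

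Some of these genes carry at their promoter the element through which SRF acts, as is known for several of them. The CArG box, the 10-base site that SRF binds, was searched in RefSeq promoters, from 250 bases before to 50 bases after the transcription start (GRCm38.p6). Its pattern is its own reverse complement, so 1 search covers both strands. Of the 47 members found in that table (not the same 47 as on the arrays), 8 had a box, or 17.0%, while 488 of all 27025 genes had one, or 1.81%. The list was chosen to include SRF targets, so the higher share may follow from that choice and is only described. The 8 were Srf, Actg1, Cnn2, Myl6, Myl9, Vcl, Fhl2 and Arpc4. The windows are shown so that the position and letters of the box can be set beside each gene's change. Capitals mark the box, and each sequence runs 5′ to 3′ along the gene's strand.

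Srf (chr17:46556190-46556269, minus strand, with boxes starting 82 and 62 bases before the start): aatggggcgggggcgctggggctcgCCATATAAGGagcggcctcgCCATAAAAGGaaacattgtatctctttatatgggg

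Actg1 (chr11:120348551-120348610, minus strand, 90 bases before the start): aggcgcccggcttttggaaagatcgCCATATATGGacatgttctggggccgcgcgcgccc

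Cnn2 (chr10:79988519-79988578, plus strand, 56 bases before the start): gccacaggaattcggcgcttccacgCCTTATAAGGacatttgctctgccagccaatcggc

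Myl6 (chr10:128493025-128493084, minus strand, 50 bases before 1 of 2 listed starts): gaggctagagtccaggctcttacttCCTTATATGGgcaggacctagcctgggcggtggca

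Myl9 (chr2:156775278-156775337, plus strand, 161 bases before the start): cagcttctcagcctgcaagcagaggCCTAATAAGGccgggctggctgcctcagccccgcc

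Vcl (chr14:20929148-20929205, plus strand, 227 bases before the start): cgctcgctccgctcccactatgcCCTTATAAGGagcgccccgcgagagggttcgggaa

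Fhl2 (chr1:43163958-43164017, minus strand, 31 bases before 1 of 2 listed starts, the other having a box of its own): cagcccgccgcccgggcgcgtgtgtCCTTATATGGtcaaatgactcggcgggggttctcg

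Fhl2 (chr1:43196823-43196882, minus strand, 96 bases before the other start): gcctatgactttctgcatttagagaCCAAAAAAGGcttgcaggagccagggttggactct

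Arpc4 (chr6:113377863-113377897, plus strand, 250 bases before the start, at the edge of the window): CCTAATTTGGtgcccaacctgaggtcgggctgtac

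Read along each gene's strand, box sequences were shared within 2 pairs of genes, too few for a test. Cnn2 and Vcl share 1 box sequence and stood at -0.04 and -0.06, and Myl6 and Fhl2 share another and stood at -0.39 and -0.30. None of Cnn2, Vcl, Myl6 and Fhl2 was called, and all overlapped between genotypes. Vcl, Fhl2 and Myl6 are among the dimmest members (means of 5.95, 6.28 and 6.75 log2). The first box of Srf is the reverse complement of the one that Myl6 and Fhl2 share, so it is the same site on the opposite strand. Srf, with a pair of boxes in 1 promoter, stood at -0.22, and Actg1 at -0.16 in its brightest probe set. Myl9 and Arpc4, each with a further variant, stood at 0.01 and -0.05. The median difference was -0.11 over the 8 members with a box and -0.05 over the 34 tested members without. Of the 8 only Srf was called, or 12.5%, and of the 34 5.9% were. Across all tested genes found in the promoter table, the median difference was -0.03 over the 139 with a box, of which 6 were higher and 15 lower (15.1% called), and -0.03 over the 8985 without, of which 397 were higher and 796 lower (13.3% called). A box in these windows is a description of letters, not evidence that SRF was bound there in thymocytes.

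Other genes of the pathway were taken from 2 lists. Of 39 tested genes in the list of other actin machinery 4 rose and 6 fell, or 25.6% called, where 13.0% of all tested genes and 6.38% of the members were. Add1 and Add3, which encode adducins that cap filaments and join them to spectrin, rose 1.30-fold and 1.19-fold (limma adjusted p = 0.00215 and 0.00972). In Add1 the WT arrays read 10.61, 10.60, 10.52 and 10.45 and the KO arrays 10.95, 10.93, 10.88 and 10.91. The formin Inf2 rose 1.35-fold, from 7.16, 7.07, 7.01 and 7.20 in WT to 7.48, 7.45, 7.52 and 7.73 in KO (adjusted p = 0.00573), and the crosslinker Actn1 rose 1.16-fold (adjusted p = 0.0147). Abi3, a partner of WAVE proteins, fell 1.25-fold, from 10.80, 10.73, 10.75 and 10.76 to 10.36, 10.39, 10.49 and 10.53 (adjusted p = 0.00589). Capg, a capping protein of the gelsolin family, fell 1.22-fold (adjusted p = 0.0178). Each of these 6 calls held in all 8 fits that left out 1 array, and all but those of Add1 and Inf2 were lost when KO replicates 1 and 2 were both left out. These 6 genes were those of smallest p, and they hold every rise of the list but only part of its falls. Estimates of the 39 ran from -0.41 to 0.43, with 21 below 0 and a median of -0.026.

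Of 14 tested SRF cofactors and immediate-early SRF targets 4 fell and 0 rose. The falls were 28.6% of this short list, against 8.53% of all tested genes. Estimates of the 14 ran from -0.37 to 0.31, with 10 below 0 and 4 above. Their median was -0.040, against -0.030 over all tested genes. Elk3, a ternary complex factor that partners SRF at immediate-early genes, fell 1.18-fold, with WT arrays at 9.34, 9.24, 9.24 and 9.33 and KO arrays at 9.01, 9.04, 9.06 and 9.10 (limma adjusted p = 0.0147). Egr1, Egr2 and Egr3, immediate-early transcription factors induced through such complexes, fell 1.28-fold, 1.27-fold and 1.30-fold (adjusted p = 0.00733, 0.0237 and 0.0205). The calls of Elk3 and Egr1 held in all 8 fits that left out 1 array. All 4 calls were lost when KO replicates 1 and 2 were both dropped (adjusted p = 0.139 for Elk3, 0.0801 for Egr1, 0.0983 for Egr2 and 0.174 for Egr3), and that of Egr3 also with heat-shock level as a covariate (0.0541). Egr2 was not called when replicate 3 or 4 of either genotype was dropped, nor Egr3 once WT replicate 2, WT replicate 3 or KO replicate 1 was dropped, where adjusted p reached 0.0592. Mrtfa, the cofactor that free actin restrains, stood at 0.20 (adjusted p = 0.0661), and Mrtfb at -0.04. These 2 were named after their values were seen.

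**Figure D5:**
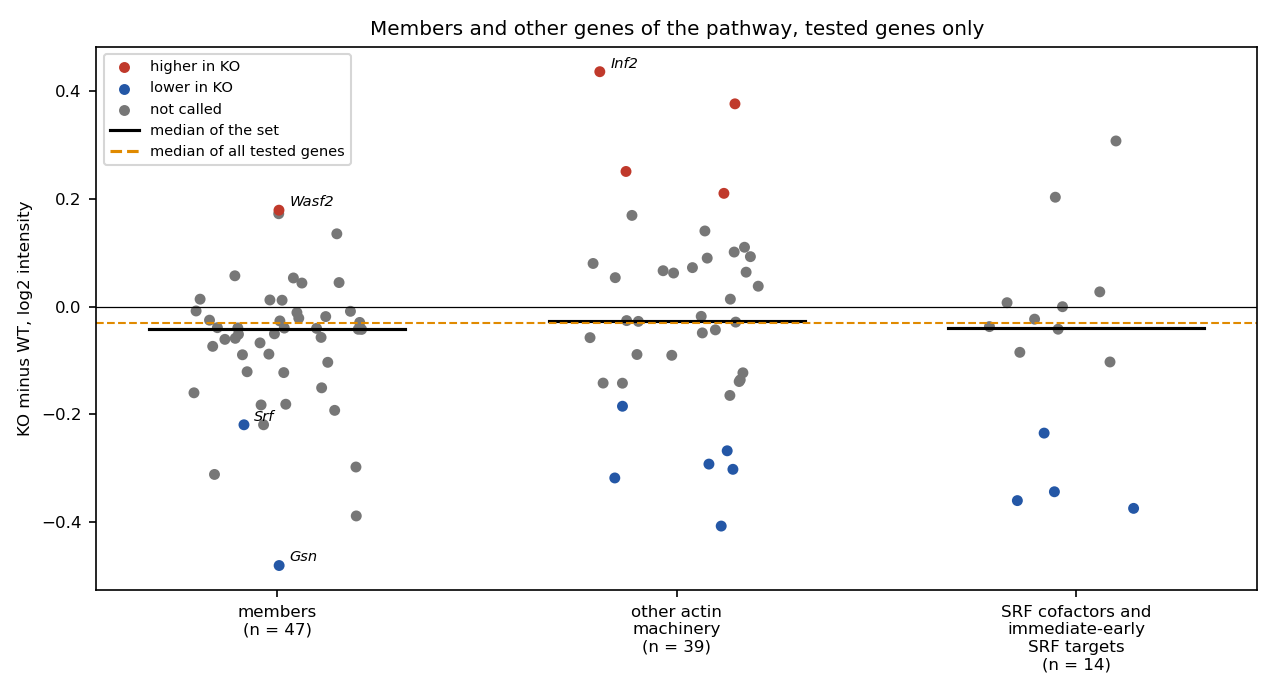
KO minus WT log2 difference of each tested gene in the members and in the 2 lists of other pathway genes, spread sideways at random within a list. Red and blue mark genes called higher and lower, black bars list medians and the dashed line the median of all tested genes. Inf2 at 0.43 and Add1 at 0.38 lie above the highest member, Wasf2 at 0.18.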

How the data were processed

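RNA of sorted thymocytes was amplified and hybridised to Mouse Gene 2.0 ST arrays, 1 per sample, per the labels' protocols. The authors deposited log2 intensities per probe set, which the submitters' processing notes credit to RMA (Affymetrix Expression Console 1.1). For the build, the annotation release and any filter: not given in the sources used here. Of 41345 probe sets, a platform annotation that can be old gives 1 symbol for 23521 and several for 1814, and 16010 are unnamed here. A gene was read from its brightest single-symbol probe set and tested where its mean reached 5.56 log2, the median of all probe sets. KO was compared with WT in limma 3.58.1 (R 4.3.3; lmFit and eBayes, two-sided, genotype as the only term, Benjamini-Hochberg over 11585 genes), after the fit was tested on simulated data. Intervals are 95% limits from the same fit and the number of arrays limits their precision. Levels were not compared between genes.

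The members, the role groups and the lists were chosen with earlier results of these data known. Named in full were called members, the 2 members of smallest p per role group, Srf, Actb and Actg1, and of each further list the called genes, at most 6 by p. Replicate numbers follow the order of deposit and pair no samples. Promoters came from RefSeq tables, which hold 47 of the members, without Actb, Nckap1l, Pak2, Rock1 and Diaph1. Alternatives were other filters, probe set averages, normalizations, array weights, covariates, a trended prior, and leaving out arrays. A further list of pathway genes is not reported here.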

Additional observations from a re-analysis of the deposited data

Results flagged for a closer look

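Limk2 had 1 array apart from the rest of its genotype. WT replicate 3 read 7.98 log2, while the next lowest WT array read 8.13, and this gap was 0.867 of the whole WT range. It was the 1 case among 94 sets of 4 arrays examined (47 members in each genotype), and chance alone marks about 1 in 20 such sets.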

How the results depend on the processing

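In the main setting 1 member was higher and 2 were lower, with a median difference of -0.042. The count higher was 0 with no intensity filter, with arrays centred on their medians, with a covariate for the titles' sample number or for heat-shock level, and when KO replicates 1 and 2 were both dropped (added after the data were seen), and 2 with an intensity trend and robust prior. In the settings giving 0, in that order, 1.64%, 3.31%, 4.51%, 3.02% and 1.17% of all tested genes were higher. With the trend and robust prior 5.27% were. The count lower was 1 with no intensity filter and without KO replicates 1 and 2, 4 with array weights, 5 after a second quantile normalization and with the sample number as a covariate, 7 with the trend and robust prior, and 9 with each array centred. Of all tested genes, 2.51% were lower with no intensity filter and 1.05% without KO replicates 1 and 2. The share was 9.12% with array weights, 10.9% after the second quantile normalization and 7.86% with the sample number as a covariate. It was 10% with the trend and robust prior, where 15.3% were called in either direction, and 11.4% with centring. The members' median was -0.0765 with centring. Leaving out each array in turn gave 0 to 1 higher, 1 to 4 lower and a median from -0.063 to -0.032. Over all tested genes those fits called 2.61% to 4.28% higher and 4.26% to 8.16% lower. A mean log2 of at least 6 and averaged probe sets gave 1 higher and 3 lower each. Of all tested genes 5.1% and 4.38% were then higher, and 9.63% and 8.36% lower. No called member changed sign. Why the counts moved was not tested. No paired analysis was possible because the labels carry no shared replicate numbers. Signal over background limits Vcl, Fhl2, Myl9 and Myl6, the dimmest members.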

Other observations

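Of the 5 members with no value, Arpc1b is covered only by 2 probe sets that also name other genes, and Arpc3, Actr2, Pak1 and Rock2 are not listed in the annotation used. For 9 members more than 1 probe set names the gene alone. The second probe set of Vim, at a mean of 9.98 log2, differed by -0.33, against -0.18 for the brightest, and averaging them put Vim past the threshold (limma adjusted p = 0.0318). Actg1 has 6 probe sets: the brightest at -0.16, a pair with identical values also at -0.16, and dimmer ones at -0.01, -0.12 and 0.18. The dimmer probe set of Tpm3 stood at 0.12 where the brightest stood at -0.12, and the dimmer ones of Tagln2 and Myl12a at -0.02 and 0.01 where the brightest stood at -0.31 and -0.22.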
